A study of Homo sapiens with 6 samples.

Results

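The genes described here are 8 members of the EGF receptor system, found as the rows of the deposited table whose gene name is EGFR, ERBB2, ERBB3, EREG, AREG, TGFA, HBEGF or ERRFI1. Each name matched 1 row, so these are 8 of 62703 listed genes. RNA sequencing gave their levels in 786-O, an established human line of clear cell renal carcinoma without working VHL protein. The 6 libraries are 3 from 786-O cells labelled OGT overexpressed and 3 from 786-O cells labelled WT and named NC in their titles. OGT is the transferase that puts single N-acetylglucosamine sugars on serines and threonines of intracellular proteins. The cells grew in RPMI-1640 with fetal bovine serum and antibiotics, and no other agent is named. The sources used here give neither the vector, nor whether the overexpressing cells are 1 clone, nor whether replicates were separate cultures. P-values therefore measure only the spread between these libraries, which may be technical. The title of the series sets OGT beside HIF-2α, and the comparison asks how raised OGT alters transcript levels.

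EGF family ligands are made as membrane-bound precursors, which proteases of the ADAM family cut to release the active growth factor. EGFR binds EREG, AREG, TGFA and HBEGF, then pairs with itself or with another ERBB receptor and signals through RAS and ERK and through PI3K. ERBB2 binds no ligand and acts as a partner, while ERBB3 binds neuregulins and has little kinase activity of its own. ERRFI1, also called MIG6, binds the kinase domain of activated receptors and damps them, and its gene is itself induced by growth factors. In clear cell renal carcinoma TGFA is a known HIF-2α target, and autocrine TGFA acting on EGFR is a known growth stimulus of VHL-deficient renal cells.

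The values are TPM, transcript abundances scaled for transcript length and to a fixed total per library, so levels of different genes can be compared. Library sums ran from 993936 to 996952 TPM. Read depth cannot be recovered from this unit, and intervals for counting error are therefore left out. OGT was listed at 352.74, 352.92 and 270.87 TPM in the OGT libraries, against 23.11, 22.57 and 23.62 TPM in the NC libraries, so all OGT libraries were far higher. Changes are OGT minus NC on the log2(TPM + 1) scale and were tested with limma, and this scale makes changes of low genes look smaller. The test took in the 12645 genes that reached 1 TPM in 3 or more libraries, and adjusted p-values are Benjamini-Hochberg values over all of them. Their median log2 change was 0.30, so a gene at that value moved with the bulk of the transcriptome. Across 12348 genes the change had a Spearman correlation of -0.47 with GC content and of 0.39 with transcript length, and genes are not independent replicates. Each member is therefore also given with the trend on both removed. All 8 renal markers passed the filter. Of these, 4 were called higher, 1 lower and 3 not called, against 39.1% of all tested genes higher and 9.70% lower. Once the trend was removed 3 were higher and 2 lower, against 16.0% and 12.8% of all genes. Among the 8, PAX8 averaged 199 TPM in OGT libraries and 136 TPM in NC libraries. KRT18, called lower, averaged 464 TPM in OGT libraries and 593 TPM in NC libraries. CDH6, not called, was listed at 7.60, 7.17 and 6.45 TPM in OGT libraries, against 2.69, 28.69 and 3.05 TPM in NC libraries. The endothelial markers summed to 0.16 to 2.68 TPM in OGT libraries and 0.76 to 4.77 TPM in NC libraries, with CDH5 at 0 in all 6. The fibroblast markers summed to 0.50 to 2.33 TPM in OGT libraries and 0.14 to 2.40 TPM in NC libraries, with COL3A1 at 0 in all 6. Of the leukocyte markers CD68, which many other cells also express, took most of the sum, which was 101.79 to 119.86 TPM in OGT libraries and 66.97 to 73.24 TPM in NC libraries. CD3E reached at most 0.23 TPM and CD14 at most 0.42 TPM. PTPRC, the defining leukocyte gene, was listed at 0 in the 3 OGT libraries and at 12.23, 0.06 and 0.07 TPM in the NC libraries. The part of these markers in the results below was not tested. In bulk RNA a change in the number of cells that express a gene and a change in its RNA per cell cannot be told apart.

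Among the members, 7 passed the filter on low values, each with at least 4.24 TPM in every library, and all 7 were called higher at an adjusted p below 0.05. That is to be read against 39.1% of all tested genes called higher and 9.70% called lower. Every OGT library lay above every NC library for the same 7 genes, as it did for 46.2% of all tested genes. A change of at least 2-fold on the log2(TPM + 1) scale was called for 4 of the 7, namely EREG, EGFR, AREG and ERRFI1, against 10.7% of all tested genes. TGFA fell just short of it, with a log2 change of 0.98. The median log2 change of the 7 was 1.19. After the GC and length trend was removed 5 of the 7 stayed called higher, against 16.0% of genes called higher and 12.8% lower. The median of all 7 was then 0.57. Median centring of the libraries also left 5 called higher, against 15.3% of genes, as did quantile normalization, against 21.5%. ERBB2 and HBEGF were the members without a call under each of these 3 scalings, and no member turned its direction.

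**Figure D1:**
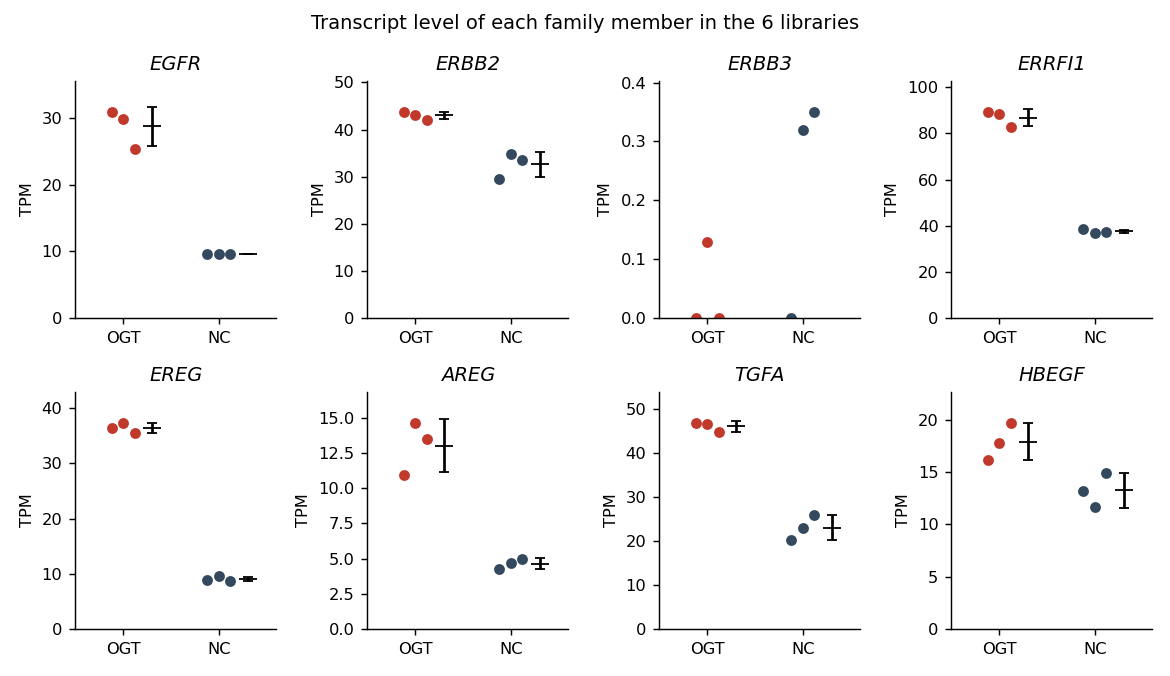
Transcript level in TPM of each of the 8 members, with 1 point per library, OGT libraries in red on the left and NC libraries in dark blue on the right of each panel. The black mark and bar give the mean and SD over 3 libraries and are left out for ERBB3, which was at most 0.35 TPM. The groups do not overlap for any member other than ERBB3, and the gap is widest relative to the NC level for EREG.

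The receptor EGFR (ENSG00000146648, chromosome 7, 55019021 to 55211628, plus strand; positions here and below are those of GENCODE release 29 on GRCh38) was listed at 30.85, 29.85 and 25.35 TPM in OGT libraries, against 9.63, 9.66 and 9.63 TPM in NC libraries. The OGT libraries all lay far above the NC libraries, which were almost identical to each other. Means were 28.7 ± 2.93 TPM in OGT cells and 9.64 ± 0.0173 TPM in NC cells (SD, n = 3 each), a 2.98-fold ratio. The log2 change was 1.48 (SE 0.10, limma adjusted p = 1.19e-04), or 1.17 above the median of all tested genes. With the GC and length trend removed it was 0.91 (adjusted p = 7.19e-04). EGFR-AS1, annotated antisense to EGFR, reached at most 0.08 TPM.

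ERBB2 (ENSG00000141736, chromosome 17, 39687914 to 39730426, plus strand), the partner receptor without a ligand, was listed at 43.73, 43.17 and 42.11 TPM in OGT libraries, against 29.56, 34.77 and 33.46 TPM in NC libraries. The groups were apart, by less than for EGFR. Means were 43.0 ± 0.823 TPM in OGT cells and 32.6 ± 2.71 TPM in NC cells (SD, n = 3 each). Its log2 change was 0.39 (SE 0.08, adjusted p = 0.00623), which is 0.09 above the median of all tested genes. The call was lost after median centring (0.0036, adjusted p = 0.978), quantile normalization (0.14, adjusted p = 0.198) and removal of the GC and length trend (0.18, adjusted p = 0.118). The annotation places MIEN1 and PGAP3 on the opposite strand over part of the ERBB2 locus. MIEN1 was listed at 48.92, 49.02 and 48.77 TPM in OGT libraries and at 52.57, 53.74 and 53.15 TPM in NC libraries. Whether counting used strand is not given in the sources used here, so the ERBB2 level is uncertain where these genes overlap.

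ERBB3 (ENSG00000065361, chromosome 12, 56076799 to 56103505, plus strand), the neuregulin receptor, was listed at 0, 0.13 and 0 TPM in OGT libraries and at 0, 0.32 and 0.35 TPM in NC libraries. It did not pass the filter, and no change is given. ERBB4, the other neuregulin receptor and no member, was listed at 0 in all 6 libraries. The receptor transcripts in these libraries were thus almost wholly EGFR and ERBB2.

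The feedback inhibitor ERRFI1 (ENSG00000116285, chromosome 1, 8004404 to 8026308, minus strand) was the most abundant member in both groups. It was listed at 89.24, 88.46 and 82.64 TPM in OGT libraries, against 38.42, 37.05 and 37.19 TPM in NC libraries. The groups lay far apart. Means were 86.8 ± 3.61 TPM in OGT cells and 37.6 ± 0.754 TPM in NC cells, a 2.31-fold ratio. The log2 change was 1.19 (SE 0.06, adjusted p = 4.28e-05) and was 0.57 once the GC and length trend was removed (adjusted p = 4.72e-04).

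EREG, which encodes epiregulin (ENSG00000124882, chromosome 4, 74365143 to 74388751, plus strand), showed the largest change of the members. It was listed at 36.44, 37.40 and 35.56 TPM in OGT libraries, against 8.84, 9.55 and 8.77 TPM in NC libraries. The replicates of each group were close together and the groups lay far apart. Means were 36.5 ± 0.92 TPM in OGT cells and 9.05 ± 0.432 TPM in NC cells, a 4.03-fold ratio. The log2 change of 1.90 (SE 0.08, adjusted p = 3.45e-05) ranked 36 among the 12645 tested genes by size of rise, where OGT itself ranked 1. Without the GC and length trend it was 1.18 (adjusted p = 2.46e-04) and ranked 103, where OGT ranked 3.

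AREG, which encodes amphiregulin (ENSG00000109321, chromosome 4, 74445134 to 74455009, plus strand), was listed at 10.95, 14.65 and 13.46 TPM in OGT libraries, against 4.24, 4.70 and 4.97 TPM in NC libraries. It was the lowest tested member in both groups, and its OGT libraries differed more among themselves than those of EREG. Means were 13.0 ± 1.89 TPM in OGT cells and 4.64 ± 0.369 TPM in NC cells, a 2.81-fold ratio. The log2 change was 1.31 (SE 0.15, adjusted p = 5.59e-04). Its reference transcript is the shortest of the members at 1240 bases, and removing the GC and length trend moved it less than EREG, to 1.06 (adjusted p = 0.00242).

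EREG and AREG stand in the same orientation on chromosome 4, with starts 79.991 kb apart. None of the other genes annotated within 200 kb of the pair was called. EPGN, the gene of the ligand epigen, starts at -56.67 kb from the EREG start and was listed at 0.03 TPM in OGT replicate 2 and at 0 in the other 5 libraries. MTHFD2L, a mitochondrial folate enzyme gene further on that side, was listed at 22.30, 7.08 and 8.17 TPM in OGT libraries, against 9.82, 10.89 and 11.58 TPM in NC libraries. Its groups overlapped (log2 change 0.03, adjusted p = 0.955). The antisense gene ENSG00000249942 beyond AREG had overlapping groups as well (0.33, adjusted p = 0.548). These neighbours were chosen by position after their values could be seen.

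The promoter sequences of EREG, AREG and EGFR are shown because these 3 members rose most. Each line gives 250 bases before and 50 bases after the RefSeq start on GRCh38.p14, 5′ to 3′ on the strand of the gene, at chr4:74364895-74365194, chr4:74444886-74445185 and chr7:55018767-55019066. Capitals mark matches, on either strand, to the hypoxia response cores ACGTG and GCGTG, the AP-1 site TGANTCA, the cAMP response element TGACGTCA, the GC box GGGCGG, the TATA motif TATAAA or the CArG box.
EREG: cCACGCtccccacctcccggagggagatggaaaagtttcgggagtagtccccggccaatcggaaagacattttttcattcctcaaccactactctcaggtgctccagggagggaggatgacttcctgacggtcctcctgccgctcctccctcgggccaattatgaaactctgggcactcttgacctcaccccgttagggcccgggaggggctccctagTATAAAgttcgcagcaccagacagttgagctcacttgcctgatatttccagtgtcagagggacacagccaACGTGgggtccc
AREG: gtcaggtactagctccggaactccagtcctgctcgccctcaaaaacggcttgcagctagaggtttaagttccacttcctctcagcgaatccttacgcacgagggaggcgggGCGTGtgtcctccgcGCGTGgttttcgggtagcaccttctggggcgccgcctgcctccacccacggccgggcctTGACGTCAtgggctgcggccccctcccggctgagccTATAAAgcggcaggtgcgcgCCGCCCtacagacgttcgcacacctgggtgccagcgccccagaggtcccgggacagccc
EGFR: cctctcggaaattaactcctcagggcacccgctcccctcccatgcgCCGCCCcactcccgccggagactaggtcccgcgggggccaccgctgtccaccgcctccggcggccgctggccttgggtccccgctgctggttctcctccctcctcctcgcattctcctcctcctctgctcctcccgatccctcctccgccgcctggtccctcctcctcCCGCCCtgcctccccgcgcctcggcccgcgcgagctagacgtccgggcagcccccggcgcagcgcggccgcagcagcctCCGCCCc

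The AREG window held the cAMP response element, beginning at position -65, a motif present in 1.84% of 34943 RefSeq promoter windows of that length. EREG and AREG each held a TATA motif, at -32 and -29, which 11.6% of windows hold. The EREG window held an ACGTG at 39, within the transcribed part, and a GCGTG on the other strand at -249. AREG had a GCGTG at -139 and at -124. All windows together held ACGTG in 21.4% and GCGTG in 36.5%. The main EGFR window, 75.3% GC, had neither a TATA motif nor a hypoxia core, and had 3 GC boxes, a motif found in 44.9% of windows. RefSeq promoters were matched for 7 of the 8 members, and ERBB3 had no entry. Over the 7, with a second window for EGFR and for TGFA, 5 held a GC box, 4 held GCGTG, 3 held TATAAA, 2 held TGANTCA (7.72% of windows) and none the CArG box (1.30%). The TATAAA and TGANTCA matches of EGFR and the GCGTG match of TGFA lay only in the second windows. The percentages are per window, so EGFR and TGFA had more chance of a match than they state. A match only describes letters in this window.

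TGFA, which encodes transforming growth factor alpha (ENSG00000163235, chromosome 2, 70447280 to 70554193, minus strand), was the most abundant ligand in both groups. It was listed at 46.98, 46.70 and 44.79 TPM in OGT libraries, against 20.21, 23.07 and 25.98 TPM in NC libraries. The lowest OGT library exceeded the highest NC library by a wide margin. Means were 46.2 ± 1.19 TPM in OGT cells and 23.1 ± 2.89 TPM in NC cells, a 2.0-fold ratio. The log2 change was 0.98 (SE 0.10, adjusted p = 3.88e-04). It was 0.36 with the GC and length trend removed (adjusted p = 0.0362).

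HBEGF, which encodes heparin-binding EGF-like growth factor (ENSG00000113070, chromosome 5, 140332843 to 140346631, minus strand), was listed at 16.17, 17.81 and 19.74 TPM in OGT libraries, against 13.16, 11.63 and 14.97 TPM in NC libraries. The groups did not overlap, but the lowest OGT and the highest NC library were close. Means were 17.9 ± 1.79 TPM in OGT cells and 13.3 ± 1.67 TPM in NC cells (SD, n = 3 each). Its log2 change of 0.41 (SE 0.13, adjusted p = 0.0317) was 0.11 above the median of all tested genes. The call was lost without OGT replicate 2 (adjusted p = 0.0822), OGT replicate 3 (0.0904), NC replicate 1 (0.0659) or NC replicate 2 (0.0919). It was also lost after median centring (0.02, adjusted p = 0.906), quantile normalization (0.10, adjusted p = 0.568) and removal of the GC and length trend (0.18, adjusted p = 0.310).

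**Figure D2:**
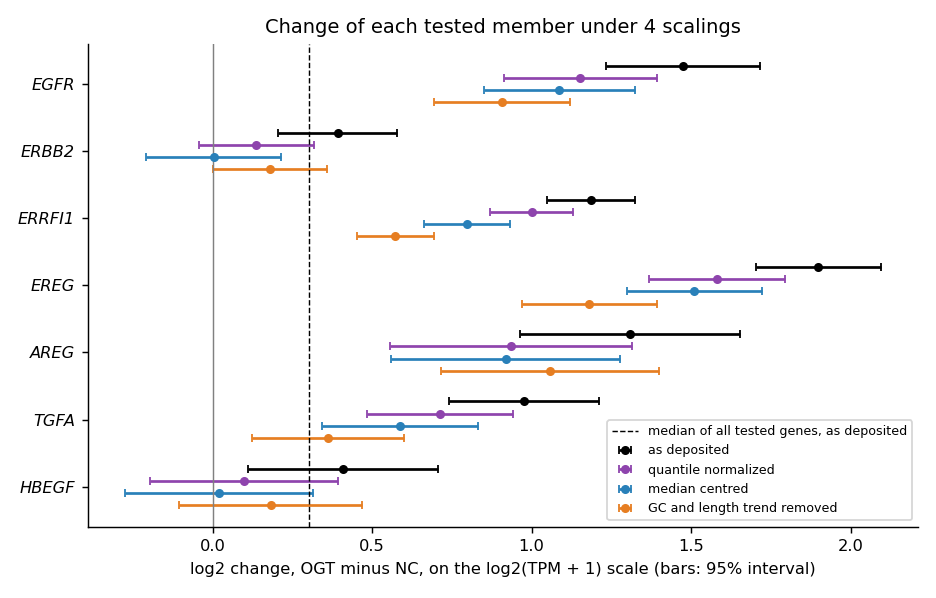
Log2 change, OGT minus NC, of the 7 tested members on the log2(TPM + 1) scale, as deposited and under 3 other scalings, with 95% intervals from limma. The dashed line is the median of all tested genes as deposited, 0.30. ERBB2 and HBEGF lie near that line as deposited and near 0 after median centring, while EREG, EGFR, AREG, ERRFI1 and TGFA lie above 0 throughout.

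The order of levels in TPM as deposited differed between the groups. In OGT libraries it ran ERRFI1, TGFA, ERBB2, EREG, EGFR, HBEGF, AREG and ERBB3 from highest to lowest. In NC libraries it ran ERRFI1, ERBB2, TGFA, HBEGF, EGFR, EREG, AREG and ERBB3. No neighbours in either order overlapped over their 3 libraries. EREG thus stood above both EGFR and HBEGF in OGT libraries, and below both in NC libraries. Its gap to EGFR in NC libraries was small, with EREG at most 9.55 TPM and EGFR at least 9.63 TPM. The GC and length trend was not removed from these levels. TGFA and ERBB2 changed by 0.98 and 0.39 (log2) as deposited, and by 0.36 and 0.18 with that trend removed.

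Shares and ratios within a library are untouched by a rescaling of the whole library, so the balance of the family was compared in that way over 8 quantities. They are not free of the GC and length trend, which was not removed from these quantities. The trend took 0.72 of the log2 change of EREG, 0.61 of TGFA and ERRFI1, and 0.57 of EGFR. It took 0.25 of AREG, 0.23 of HBEGF and 0.21 of ERBB2. Each was tested with a two-sided exact permutation test over the 6 libraries, whose smallest possible p is 0.10, so none can pass 0.05. EGFR made up 41.4%, 40.8% and 37.6% of the summed TPM of EGFR, ERBB2 and ERBB3 in OGT libraries, against 24.6%, 21.6% and 22.2% in NC libraries (exact p = 0.10, adjusted 0.10). The log2 ratio of EGFR to ERBB2 averaged -0.59 ± 0.12 in OGT libraries and -1.75 ± 0.12 in NC libraries (SD, n = 3 each, exact p = 0.10). ERBB2 was thus the more abundant receptor transcript in all 6 libraries, by a smaller margin in OGT libraries. The difference between the log2 changes of EGFR and ERBB2 was 1.08 as deposited and 0.72 with the GC and length trend removed.

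Among the 4 ligands, whose shares sum to a whole and so are not independent, EREG held 33.0%, 32.1% and 31.3% of summed TPM in OGT libraries, against 19.0%, 19.5% and 16.0% in NC libraries. HBEGF held 14.6%, 15.3% and 17.4% in OGT libraries, against 28.3%, 23.8% and 27.4% in NC libraries. TGFA averaged 40.7 ± 1.62% in OGT libraries and 46.0 ± 2.21% in NC libraries (SD, n = 3 each), and AREG 11.4 ± 1.38% in OGT libraries and 9.27 ± 0.286% in NC libraries. The groups did not overlap for any of these 4 shares (exact p = 0.10 for each, adjusted 0.10). The log2 change of EREG exceeded that of HBEGF by 1.49, that of TGFA by 0.92 and that of AREG by 0.59. With the GC and length trend removed these differences were 1.00, 0.82 and 0.12, so the gap between EREG and AREG nearly closed. Summed ligand TPM was 110.54, 116.56 and 113.55 in OGT libraries, against 46.45, 48.95 and 54.69 in NC libraries. Summed receptor TPM was 74.58, 73.15 and 67.46 in OGT libraries, against 39.19, 44.75 and 43.44 in NC libraries. Ligands outweighed receptors in every library, with a log2 ratio of 0.66 ± 0.09 in OGT libraries and 0.24 ± 0.10 in NC libraries (exact p = 0.10, adjusted 0.10). The log2 ratio of ERRFI1 to EGFR was 1.53, 1.57 and 1.70 in OGT libraries, against 1.996, 1.939 and 1.949 in NC libraries (exact p = 0.10). The inhibitor transcript thus exceeded the EGFR transcript in all 6 libraries, and by less in OGT libraries.

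**Figure D3:**
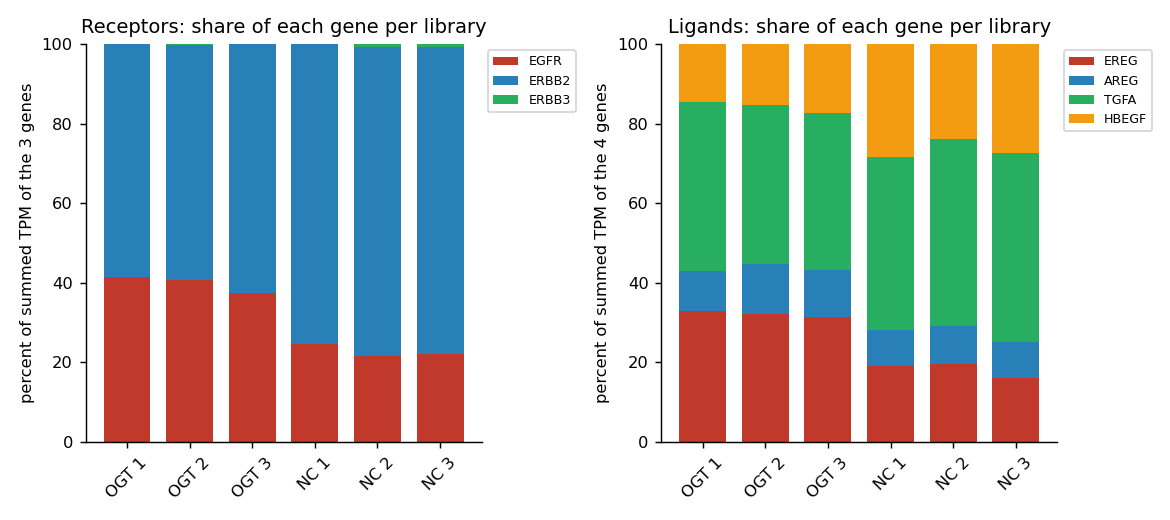
Share of each gene in the summed TPM of the 3 receptors (left) and of the 4 ligands (right), in percent, with 1 bar per library, the OGT libraries first. EGFR takes 37.6% to 41.4% of receptor TPM in OGT libraries and 21.6% to 24.6% in NC libraries, and EREG takes a larger and HBEGF a smaller share of ligand TPM in OGT libraries.

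The rest of the pathway was described by 5 lists, 78 genes in all, of which 69 were tested, 45 called higher (65.2%) and 1 lower, against 39.1% of all tested genes higher and 9.70% lower. Removal of the GC and length trend left 18 higher (26.1%) and 4 lower, against 16.0% and 12.8% of all genes. Quantile normalization left 31 higher (44.9%) and 6 lower, against 21.5% and 16.9%, and median centring 19 higher (27.5%) and 9 lower, against 15.3% and 24.2%. Of the 7 other ligands and ERBB4, only NRG1 and NRG2 passed the filter. NRG1, which encodes a neuregulin for ERBB3 and ERBB4, averaged 11.6 ± 1.26 TPM in OGT libraries and 5.87 ± 0.547 TPM in NC libraries (log2 change 0.88, adjusted p = 0.00198), without a call after the GC and length trend was removed (0.16, adjusted p = 0.362). NRG2 was 4.27 ± 1.36 TPM in OGT libraries and 4.18 ± 1.18 TPM in NC libraries, without a call (log2 change 0.02, adjusted p = 0.962). EGF itself, named after its values were seen, was listed at 0.19, 1.53 and 1.76 TPM in OGT libraries, against 0.12, 0.16 and 0.17 TPM in NC libraries, and did not pass the filter.

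Genes of ligand release were called higher for 6 of 7, against 39.1% of all tested genes, with a median log2 change of 0.92 beside 0.30. ADAM10 and ADAM17 encode the main sheddases of EGF family precursors. ADAM17 was listed at 11.53, 9.08 and 10.06 TPM in OGT libraries, against 4.10, 3.53 and 4.38 TPM in NC libraries (log2 change 1.16, adjusted p = 9.17e-04). ADAM10 was listed at 20.82, 23.64 and 18.63 TPM in OGT libraries, against 5.95, 6.95 and 9.25 TPM in NC libraries (1.41, adjusted p = 7.48e-04). Both genes separated the groups. RHBDF2, which encodes an inactive rhomboid needed for ADAM17 maturation, averaged 65.3 ± 3.34 TPM in OGT libraries and 37.6 ± 1.95 TPM in NC libraries (0.78, adjusted p = 2.48e-04). ADAM12, another sheddase gene, changed by 1.27 (adjusted p = 0.00119). With the GC and length trend removed 4 of the 7 stayed higher, against 16.0% of all genes, with a median of 0.44 beside 0.03. RHBDF2 was then at 0.66, ADAM10 at 0.67 and ADAM12 at 0.66, while ADAM17 at 0.44 was no longer called (adjusted p = 0.0591).

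Adaptors and kinases below the receptors were called higher for 19 of 24 tested genes, against 39.1% of all tested genes. None was called lower, against 9.70%, and the median log2 change was 0.54 beside 0.30. The count for this list was 6 higher (25%) and 2 lower with the GC and length trend removed, against 16.0% and 12.8% of all genes. It was 5 higher (20.8%) and 3 lower after median centring, against 15.3% and 24.2%. Under both of these scalings the shares of higher calls lay much nearer those of all genes. Quantile normalization left 13 higher (54.2%) and 1 lower, against 21.5% and 16.9% of all genes. NRAS, a RAS GTPase gene, averaged 15.1 ± 0.228 TPM in OGT libraries and 5.75 ± 0.258 TPM in NC libraries (log2 change 1.26, adjusted p = 1.95e-04, trend removed 0.51). PTPN11, which encodes the phosphatase SHP2 that aids RAS activation, averaged 9.86 ± 0.32 TPM in OGT libraries and 3.30 ± 0.955 TPM in NC libraries (1.36, adjusted p = 0.00119, trend removed 0.59). PIK3R2, a regulatory subunit gene of PI3K, changed by 1.16 and by 1.02 with the trend removed.

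Genes of receptor turnover and inhibition were called higher for 9 of 22 tested genes, 40.9%, which is near the 39.1% of all tested genes. They were called lower for 1, against 9.70% of all tested genes. Removal of the GC and length trend left 2 higher (9.09%, against 16.0% of all genes) and 2 lower, against 12.8%. Median centring left 4 higher (18.2%, against 15.3%) and 5 lower, against 24.2%. Quantile normalization left 6 higher (27.3%, against 21.5%) and 5 lower, against 16.9%. PTPN1, which encodes a phosphatase that acts on EGFR, averaged 31.1 ± 2.90 TPM in OGT libraries and 14.0 ± 1.24 TPM in NC libraries (log2 change 1.10, adjusted p = 3.39e-04, trend removed 0.64). SH3KBP1, which encodes a CBL-binding adaptor of receptor endocytosis, changed by 1.12 (trend removed 0.54). PTPRJ, a receptor phosphatase gene, changed by 0.84 and was not called with the trend removed (0.28, adjusted p = 0.0562). STUB1, which encodes the chaperone-linked ubiquitin ligase CHIP, was the member of this list that fell, with 338 ± 14.3 TPM in OGT libraries and 418 ± 20.4 TPM in NC libraries (-0.30, adjusted p = 0.00303). Its call was lost with the trend removed (-0.14, adjusted p = 0.0821).

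Genes known to rise with ERK activity were called higher for 10 of 14, against 39.1% of all tested genes. None was called lower, against 9.70%, and the median log2 change was 0.52 beside 0.30. With the GC and length trend removed 6 were higher (42.9%, against 16.0% of all genes) and none lower, against 12.8%. The median was then 0.22 beside 0.03. After quantile normalization 5 were higher (35.7%, against 21.5%). After median centring 4 were higher (28.6%, against 15.3%) and 1 lower, against 24.2%. DUSP6, which encodes an ERK phosphatase, was listed at 13.58, 14.36 and 17.02 TPM in OGT libraries, against 4.89, 4.76 and 5.44 TPM in NC libraries (log2 change 1.40, adjusted p = 2.93e-04, trend removed 0.82). The groups were well apart. EGR1, an early growth response factor gene, averaged 83.3 ± 7.63 TPM in OGT libraries and 50.25 ± 0.705 TPM in NC libraries (0.71, adjusted p = 4.59e-04, trend removed 0.53). The cyclin D1 gene CCND1 changed by 1.01 (trend removed 0.59). PHLDA1, which encodes a pleckstrin homology domain protein, changed by 0.80 and was not called with the trend removed (0.09, adjusted p = 0.381).

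**Figure D4:**
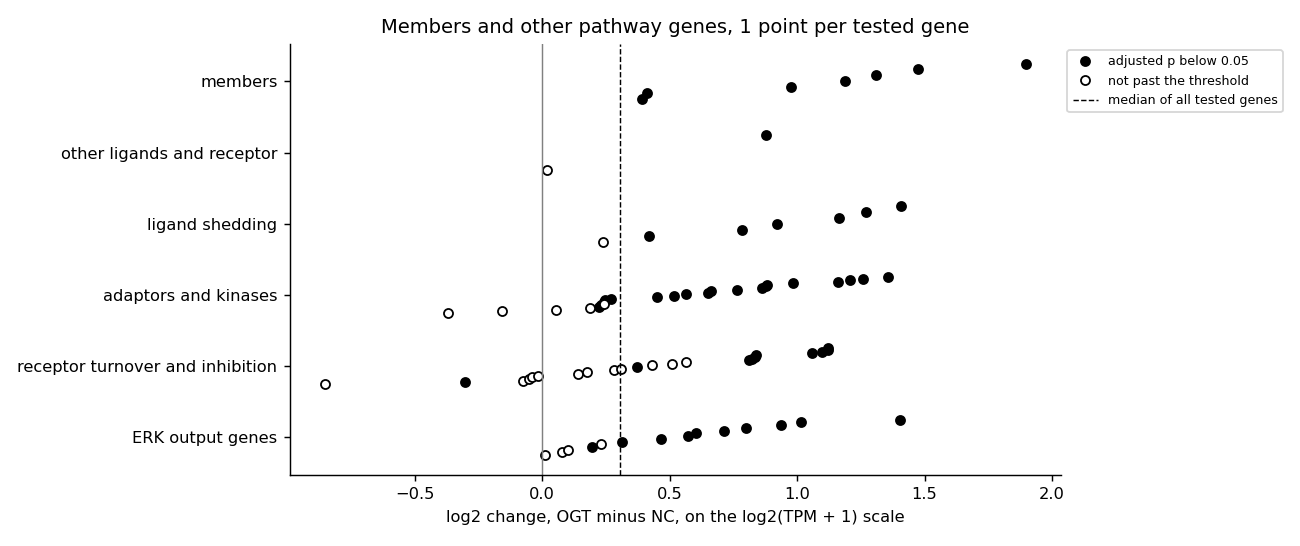
Log2 change, OGT minus NC, of the 7 tested members and of the tested genes of 5 pathway lists, with 1 point per gene on the log2(TPM + 1) scale and vertical offsets that only separate points. Filled points passed an adjusted p of 0.05, open points did not, and the dashed line is the median of all tested genes, 0.30. All 7 members lie to the right of that line. The lists of receptor turnover and inhibition and of adaptors and kinases lie on both sides of 0.

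Likeness of profile was measured as the root mean square difference between log2(TPM + 1) values of the 6 libraries, each gene centred on its own mean, over 7851 tested genes averaging 5 TPM or more. The nearest genes to EGFR were ATP2B4, FAM120A and PRKAA1, at differences of 0.030, 0.048 and 0.049. Near EREG were RSL1D1 and DTX3L (0.076 and 0.084), and AREG by STOM, GBP1 and CAT (0.072, 0.084 and 0.092). TGFA had MACF1, SRPX and COLGALT1 (0.018, 0.024 and 0.028), and ERRFI1 had RND3, XRCC5 and FHL1 (0.024, 0.031 and 0.038). For ERBB2 the nearest were COL4A2, LTBR and KDELR1 (0.029, 0.032 and 0.033), and for HBEGF they were IFT22, ABHD6 and MTRFR (0.041, 0.051 and 0.054). No gene was among the nearest of more than 1 member. The measure takes in the change between the groups, so near genes are largely genes of like change. ATP2B4, COL4A2 and MACF1 changed by 1.52, 0.39 and 0.98 (log2), beside 1.48, 0.39 and 0.98 for EGFR, ERBB2 and TGFA. Shared regulation was not tested.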

How the data were processed

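Total RNA of 786-O cells was made into TruSeq RNA libraries, per the labels' protocols, and the authors deposited TPM per gene for 6 samples. No aligner, counter or annotation is named in the labels. Per the submitters' processing notes the builds were GRCm38 and mm10, which are mouse assemblies, while the gene identifiers are human. Groups and replicate numbers came from sample titles.

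Genes reaching 1 TPM in 3 or more libraries were compared by limma 3.58.1 (R 4.3.3) on log2(TPM + 1) values (eBayes with trend and robust, two-sided, Benjamini-Hochberg, threshold 0.05), and the fit was tested on simulated data. Locations, GC content and length came from GENCODE release 29 (the longest transcript, a protein-coding one if present). Trends on GC and length were removed per library with natural splines of 4 degrees of freedom. Other alternatives were a pseudocount of 0.1, no filter, quantile normalization, median centring, each replicate left out and a replicate block.

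Members and lists were chosen with earlier results of these data known. Named genes were the members and OGT, the 4 called genes of lowest adjusted p in each list (fewer where fewer were called), and the 3 nearest profiles per member. Some genes that this rule names are not reported here. Promoters came from RefSeq.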

Additional observations from a re-analysis of the deposited data

How the results depend on the processing

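EGFR, EREG, AREG and ERRFI1 kept their direction and call under all 13 alternatives run, and OGT did too. Called members numbered 7 as deposited and 6 to 7 with a replicate left out. ERBB2 and HBEGF lost their calls under the 3 rescalings, and HBEGF also with no filter (adjusted p = 0.0710). Same-numbered replicates did not pair, with correlations of deviations of -0.019, 0.0026 and 0.017, and the own number gave the best correlation in 1 of 6 samples. The replicate block kept 7 members higher and gave 4382 genes higher and 1091 lower. Block and trend removal together left 4 members higher, with TGFA no longer called (adjusted p = 0.0574), 16 pathway genes higher and 3 lower, and 1521 genes higher. Counts over all tested genes were 4941 higher and 1227 lower as deposited. They were 2714 and 2138 after quantile normalization, 1937 and 3066 after median centring, and 1974 higher with the trend removed. Pathway genes were 19 higher and 9 lower after median centring, 18 and 4 with the trend removed, and 6 lower after quantile normalization. Leaving out a replicate gave 1 to 2 lower. The median change of all genes turned to -0.085 after median centring, which sets it near 0 by construction. The count-based test foreseen for a table of counts was not run, since the values are TPM. The differences of the 8 shares and ratios kept their sign with each replicate left out. So did the 3 log2 ratios with 1 TPM added to the upper and to the lower term of each ratio. Depth is unknown, so it limits AREG and other low genes in an unmeasured way.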

Other observations

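Several genes of the pathway lists were high in a single NC library. NRG3, a neuregulin gene, was listed at 12.43 TPM in NC replicate 1 and at 0 in the other 5 libraries. LRIG2, a transmembrane regulator of EGFR, was listed at 0.77, 1.76 and 0.85 TPM in OGT libraries, against 0.37, 17.76 and 1.07 TPM in NC libraries. SPRY4, a RAS pathway inhibitor gene, was listed at 5.82, 4.66 and 4.39 TPM in OGT libraries, against 1.67, 21.04 and 2 TPM in NC libraries. CD2AP, an endocytic adaptor gene, was listed at 3.31, 3.80 and 3.02 TPM in OGT libraries, against 10.02, 1.32 and 1.26 TPM in NC libraries. Outside these lists, CDH6 reached 28.69 TPM in NC replicate 2 and PTPRC 12.23 TPM in NC replicate 1. MTHFD2L was high in an OGT library, with 22.30 TPM in OGT replicate 1. None of the 8 members showed such a single high library. NRG3, LRIG2, SPRY4, CD2AP, CDH6, PTPRC and MTHFD2L were picked for this paragraph because of these values.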
